A study of Rattus norvegicus with 21 samples.

Results

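A lesion of the dopamine fibres was compared with no lesion in the dorsal striatum of rats that had received saline and no L-DOPA. The comparison holds 14 of the 21 bisulfite libraries of the study, taken by their titles: 8 lesioned and 6 unlesioned, all saline-treated. The rats were Sprague Dawley, wild type and 120 days old, and the tissue of every library is labelled as dorsal striatum. In the lesioned group the toxin 6-hydroxydopamine (6-OHDA) had been placed in the medial forebrain bundle on the left side, aimed at loss of nearly all axons with tyrosine hydroxylase, and the rats recovered for 3 weeks. The protocols state a schedule for L-DOPA but none of their own for saline, and they do not say whether the unlesioned tissue comes from unoperated rats, sham-operated rats or the intact side. The other 7 libraries, lesioned and given L-DOPA at 6 mg/kg for 7 days, entered the models only to help estimate the spread. Replicate numbers are given but no animal is named behind them, so a p-value here reflects only how far the libraries spread, which may be technical in part.

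The dorsal striatum is the input station of the basal ganglia, and most of its neurons are GABAergic medium spiny neurons that carry dopamine receptors. The medial forebrain bundle brings them dopamine from cells of the midbrain, and 6-OHDA enters catecholamine neurons through their transporters and kills them, a standard model of Parkinson's disease. The dopamine cell bodies lie outside the striatum, so the DNA measured here comes from the neurons, glia and vessel cells that stay behind. Cytosine methylation at CpG sites is a mark on the DNA of those cells: most CpGs of a mammalian genome are methylated, while CpG-dense stretches such as CpG islands are mostly free of it. Bisulfite turns unmethylated cytosine into a base read as T and leaves methylated and hydroxymethylated cytosine as C, so the level given here is the percent of reads with C and counts both marks. In bulk tissue a shift in the mix of cell types and a shift within cells cannot be told apart.

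The saline libraries listed 977801 to 1264191 CpGs on chromosomes 1 to 20 and X, each with at least 10 reads. Median coverage per cytosine was 37 to 70 reads. The mitochondrial genome, taken as nearly free of methylation, read as 1.17% to 1.49% methylated. Library numbers form 2 runs, called series 1 and series 2: lesioned replicates 1 to 6 belong to series 1, and lesioned replicates 7 and 8 and all 6 unlesioned libraries to the later series 2. Among the saline libraries a difference between the groups and one between the runs can therefore be told apart only through those 2 lesioned libraries. The L-DOPA libraries, 3 in series 1 and 4 in series 2, bear on the runs in the model with series as a term. Unlesioned replicates 1 and 4 and lesioned replicate 2 stood apart from the rest, as described with the spread below, and results that rest on the 2 unlesioned ones are also given without them. Positions refer to the rat build rn5; no rn5 sequence or gene annotation was used here, so no gene and no sequence is given for a position.

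No difference in methylation between lesioned and unlesioned striatum passed the test at any of 3 scales. At 250 bp tiles with at least 2 CpGs, 0 of 180850 tested tiles were called at an adjusted p under 0.05, a background of 0%. The count was also 0 of 146001 windows of 1000 bp (0%) and 0 of 764713 single CpGs (0%), and the smallest adjusted p was 1 at each scale. The test was a quasi-binomial logistic model of the read counts with a dispersion shared across features in the manner of limma. With limma on log2 odds as the other tool, the counts were 0, 0 and 0. Before adjustment, 0.05 was undercut by 6191 tiles (3.42%), 4555 windows (3.12%) and 31071 CpGs (4.06%) in the model, and with limma by 6676, 5055 and 31759. Where no feature differs, about 1 in 20 would undercut 0.05, and the 3 shares of the model were below that.

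Among the features under the unadjusted threshold more were lower than higher after the lesion. Of the tiles, 4014 (2.22% of those tested) were lower and 2177 (1.2%) higher. Of the windows, 3022 (2.07%) were lower and 1533 (1.05%) higher, and of the single CpGs 18631 (2.44%) were lower and 12440 (1.63%) higher. This split moved with single libraries in both directions. Without unlesioned replicate 1 it was 7285 lower against 1740 higher tiles, 6112 against 1135 windows and 28899 against 10478 CpGs. Without unlesioned replicate 3 it was 3369 against 2919 tiles, 2411 against 2157 windows and 16890 against 15285 CpGs. With the library series as a term in the test it was 3543 against 2851 tiles. Lower and higher there still refer to the group difference without that term. Within series 2 alone the split was turned around, with 1694 lower and 1980 higher tiles, and 1141 lower and 1253 higher windows.

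The differences themselves were small at most features. Of the tile differences, lesioned minus unlesioned, 95% lay between −7.64 and 6.58 percentage points, around a median of −0.0608. For windows the same limits were −7.53 and 6.50 points, and for single CpGs −10.02 and 9.01 points. A difference of 10 points or more was seen at 3234 tiles, 2016 lower and 1218 higher. The median standard error of a tile difference was 2.24 points over all tested tiles and 4.63 points at tiles of 20% to 80% methylation. At single CpGs these standard errors were 3.01 and 6.28 points. The median number of reads was 52 per CpG and library and 189 per tile, where a read counts at each CpG it covers. A difference of a few points at a tile of intermediate level was thus not detectable at this depth and spread.

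Groups that did not overlap at all were rare. Of the 144394 tiles measured in all 14 libraries, every lesioned value lay below every unlesioned value at 49 (0.0339%) and above at 23 (0.0159%). For windows the counts were 38 (0.0325%) lower and 16 (0.0137%) higher of 116990. For single CpGs they were 142 (0.0237%) lower and 104 (0.0174%) higher of 599042. Each of these orders is 1 of the 3003 assignments of 14 libraries to 8 and 6. Groups drawn at random would thus also separate at some features, and these counts were not tested.

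Mean methylation over the tiles measured in common did not differ with the lesion beyond the spread between libraries. Over the 147628 tiles measured in all 14 saline libraries, before any filter on level, lesioned libraries averaged 45.1% at the lowest, 47.3% at the median and 48.1% at the highest. Unlesioned libraries averaged 43.4%, 47.7% and 48.8% at the same points of their order. The unlesioned range enclosed the lesioned range at both ends. Group means were 46.98% ± 0.911 (SD, n = 8) and 47.15% ± 2.06 (n = 6), a difference of −0.172 points (SE 0.899, exact two-sided permutation p = 0.848). Without unlesioned replicate 1, which had the lowest mean, the difference was −0.928 points (exact permutation p = 0.111). Without unlesioned replicates 1 and 4, a choice made after the data were seen that keeps lesioned replicate 2, it was −1.18 points (exact permutation p = 0.0626). Other omissions turned its sign. Without lesioned replicate 2, the lowest of its group, it was 0.103 points. Without unlesioned replicate 3, 5 or 6 it was 0.107, 0.155 or 0.110 points. Within series 2 alone, 2 lesioned against 6 unlesioned libraries, it was 0.288 points (exact permutation p = 0.857; 28 assignments).

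CpG density and level went together as they do in mammalian DNA. Of tested tiles with 2 or 3 listed CpGs, 13.8% had a level under 20%, 39.8% lay between 20% and 80%, and 46.4% were above 80%. Of tiles with 15 or more CpGs, 97.1% were under 20%, 1.92% were intermediate and 0.992% were above 80%. The level is the mean of both group means and so favours neither group. Crossing 3 levels with 4 densities gave 12 classes, and the X chromosome was taken as a further class.

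Dense unmethylated tiles, the CpG island part of the genome, had almost the same level in both groups. At tiles of 15 or more CpGs and under 20% methylation, lesioned libraries lay at 1.68%, 1.84% and 2.18% (lowest, median, highest) and unlesioned libraries at 1.76%, 1.91% and 2.11%. The group means were 1.89% ± 0.185 (SD, n = 8) and 1.92% ± 0.133 (n = 6), over 15154 tiles. Sparse unmethylated tiles of 2 or 3 CpGs sat higher, at 7.05% ± 0.523 (n = 8) after the lesion and 7.30% ± 0.938 (n = 6) without it. Their difference of −0.253 points (SE 0.425) was inside the spread (exact permutation p = 0.525, adjusted over 13 classes 0.989).

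Intermediate tiles varied most between libraries. At 2 or 3 CpGs and 20% to 80% methylation, lesioned libraries lay at 49.0%, 55.0% and 57.2% and unlesioned libraries at 45.3%, 55.9% and 58.9%. Group means were 54.2% ± 2.48 (SD, n = 8) and 54.6% ± 5.14 (n = 6), a difference of −0.409 points (SE 2.27). At 4 to 7 CpGs the difference was −0.615 points (SE 2.26), and at 8 to 14 CpGs −0.574 points (SE 2.07). The 274 intermediate tiles of 15 or more CpGs averaged 40.8% ± 1.64 (n = 8) and 41.3% ± 3.47 (n = 6). None of these differences exceeded its standard error.

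Highly methylated tiles were as close. At tiles of 2 or 3 CpGs above 80%, the group means were 90.61% ± 0.511 (SD, n = 8) after the lesion and 90.55% ± 1.38 (n = 6) without it. The difference of 0.0632 points (SE 0.594) was far inside the spread. On the X chromosome the 2145 tiles averaged 36.56% ± 0.505 (n = 8) and 36.58% ± 1.19 (n = 6). No class passed, and the adjusted exact permutation p was 0.989 for each of the 13. In every class the SD of the unlesioned libraries was the larger, except in the unmethylated classes of 8 to 14 and of 15 or more CpGs. Within series 2 alone the difference was above 0 in 12 of the 13 classes, with an adjusted exact permutation p of 1 in each.

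**Figure D1:**
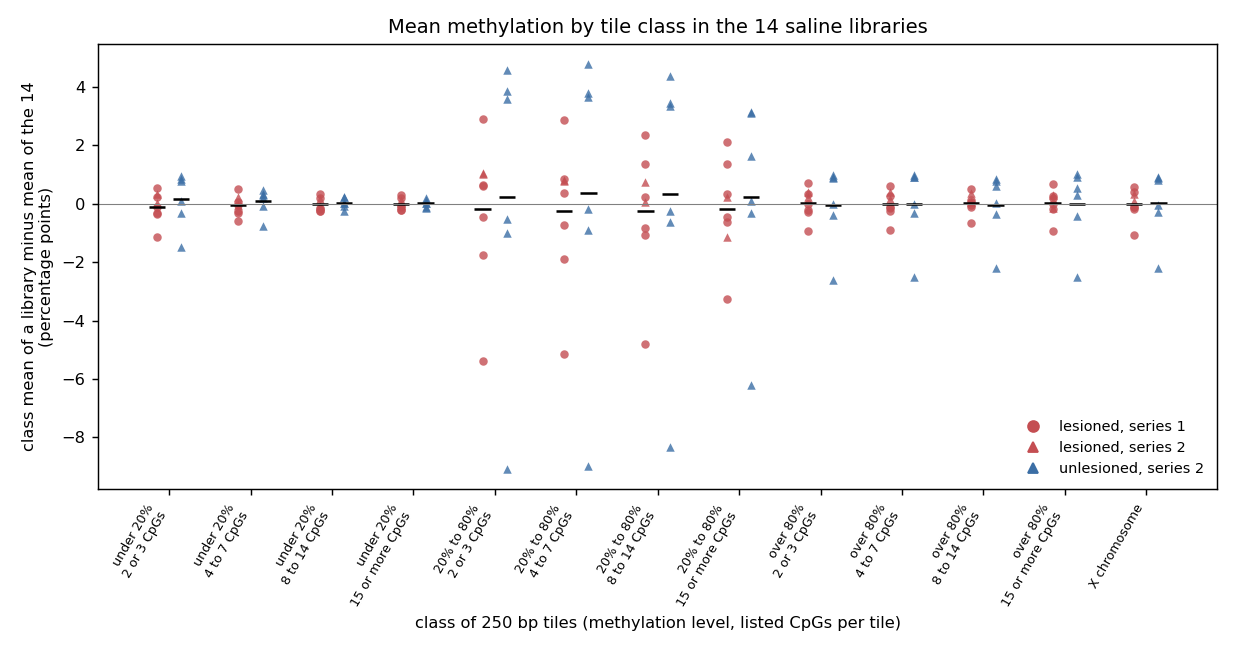
Mean methylation of each library in 13 classes of 250 bp tiles, as percentage points above or below the mean of the 14 saline libraries (vertical axis), by level and listed CpGs of the tile (horizontal axis). Circles are lesioned libraries of series 1, triangles libraries of series 2, red lesioned and blue unlesioned, and bars are group means; in the intermediate classes unlesioned replicate 1 lies lowest and lesioned replicate 2 second lowest.

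The share of single CpGs at each end of the scale did not separate the groups either. Over 859273 CpGs measured in all 14 libraries, 55.4% ± 0.604 (SD, n = 8) were under 10% methylated after the lesion and 55.2% ± 1.09 (n = 6) without it. The share above 90% was 14.7% ± 0.542 (n = 8) against 14.96% ± 1.38 (n = 6), a difference of −0.233 points (SE 0.595). The remaining CpGs, between 10% and 90%, made up 29.9% and 29.8%. The adjusted exact permutation p was 0.866 for each of the 3 shares. Without unlesioned replicate 1 the share above 90% differed by −0.763 points, with an exact permutation p of 0.0350 that became 0.105 after adjustment over the 3 shares.

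Tiles under the unadjusted threshold were spread over all classes and chromosomes. They made up 2.81% to 4.63% of the tested tiles in the 12 classes, beside 3.42% over all tiles. Intermediate tiles of 4 to 7 CpGs had 520 lower and 123 higher tiles, while unmethylated tiles of 15 or more CpGs had 363 lower and 262 higher. Per chromosome the share was 3.03% to 3.77%. More tiles were lower than higher on each of the 20 autosomes, and on the X chromosome there were 47 of each. These directions share the dependence on single unlesioned libraries and on the series given above.

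The individual features are those with the smallest p, 5 per direction at each scale, and all had an adjusted p of 1. They were chosen by p, so their size and their separation describe them and test nothing. The 30 features lie at 24 loci, of which 5 were named at more than 1 scale. At 15 of the 30 the groups did not overlap. All 30 kept their sign within series 2, with 1 or 2 lesioned and 5 or 6 unlesioned libraries, and in each of the other settings tried. The kept sign tests nothing either. Those libraries were part of the choice by p, and settings that change only the model reuse the same difference.

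The tile with the smallest p was lower after the lesion and lies on chromosome 3 at 9222001 to 9222250, with 5 CpGs. Lesioned libraries read 49.5% at the lowest, 68.2% at the median and 80.6% at the highest, and unlesioned ones 87.2%, 90.1% and 97.5%. Every lesioned value lay below every unlesioned value, although lesioned replicate 2 and unlesioned replicate 4 had no value there. The group means were 67.4% ± 9.65 (SD, n = 7) and 92.1% ± 4.75 (n = 5), a difference of −24.7 points (SE 4.22). The unadjusted p was 1.27e-05. Reads summed over the CpGs numbered 40 to 222 per library, and the half-width of the 95% Wilson interval of a library was 3.94 to 10.1 points. A read that covers several CpGs counts at each, so such intervals may be too narrow. The 2 lesioned libraries of series 2 averaged 71.0%, against 66.0% for the 5 of series 1. Lesioned rats given L-DOPA averaged 73.6% ± 9.29 (n = 6).

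All 5 CpGs listed within 1000 bp of the centre of that tile lay inside it, and all 5 had the lower mean after the lesion. The CpG at 9222026 averaged 77.6% ± 13.8 (SD, n = 7) after the lesion and 99.5% ± 1.12 (n = 5) without it. The neighbour at 9222047 averaged 68.9% ± 15.1 and 92.4% ± 3.99. At the last CpG, 9222120, the level was low in both groups, 24.1% ± 15.1 (n = 7) and 40.9% ± 28.3 (n = 4). The unlesioned values there ran from 0% to 64.1%, so the groups overlapped. They also overlapped or met at each of the other 4 CpGs. In order of position, the highest lesioned values there were 95.7%, 100%, 100% and 87.5%. The lowest unlesioned values were 94%, 97.5%, 93.3% and 87.5%. Of the libraries with a value for the tile, 6 of 7 lesioned but 3 of 5 unlesioned ones list this low CpG, and −24.7 points is wider than the difference at any of the 5 CpGs. Summed over the other 4 CpGs, a choice made after the values were seen, the means were 78.0% ± 10.3 (n = 7) and 97.1% ± 0.934 (n = 5). That difference was −19.0 points, without overlap of the summed values.

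The tile with the deepest coverage among the 5 lower ones lies on chromosome 5 at 76371501 to 76371750, with 4 CpGs and 517 to 2260 reads per saline library. Lesioned libraries read 82.8%, 85.6% and 90.2% (lowest, median, highest) and unlesioned ones 92.8%, 95.3% and 99.3%. The lowest unlesioned value lay above the highest lesioned value. The means were 86.4% ± 2.76 (SD, n = 8) and 95.4% ± 2.19 (n = 6), a difference of −9.04 points (SE 1.32) with an unadjusted p of 4.47e-05. Per library the half-width of the Wilson interval was 0.543 to 3.05 points, with the same limit on reads summed over CpGs. Leaving out unlesioned replicates 1 and 4 left −8.73 points, and series 2 alone gave −7.72 points.

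That locus was the single one named at all 3 scales. The 4 CpGs of the tile, from 76371554 to 76371596, differed by −9.97, −9.60, −8.26 and −8.26 points in order of position. At 76371554 the groups overlapped, with a highest lesioned value of 89.0% and a lowest unlesioned value of 88.4%. Another CpG at 76371479, just outside the tile, covered by 12 to 76 reads, differed by −9.43 points, also with overlapping groups. Lesioned rats given L-DOPA averaged 80.6% ± 9.42 (SD, n = 7) over the tile, from 64.1% to 90.9%. In the model of all 3 groups the dispersion of the tile was 17.7, and the median of all tiles was 3.28. A value of 1 is counting error alone if the counts of a tile's CpGs are independent, which CpGs on 1 read may not be. In a model of the 14 saline libraries alone it was the 1 tile called, with an adjusted p of 0.0357. Over the 23 settings that kept the overdispersion its adjusted p ran from 0.0357 to 1.

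**Figure D2:**
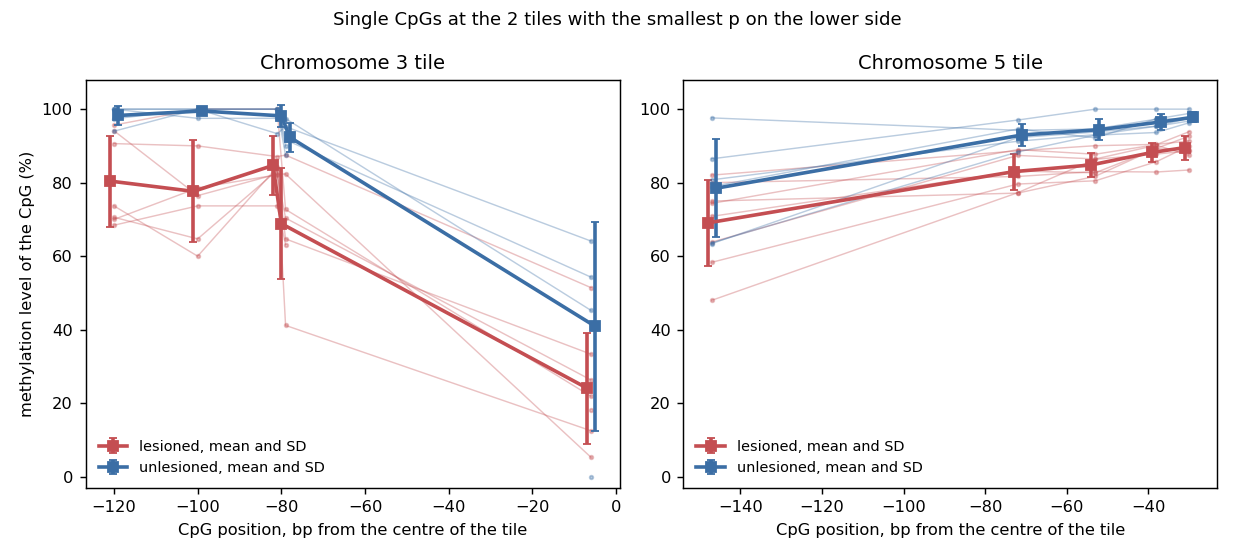
Methylation of single CpGs (percent, vertical axis) by distance from the tile's centre (bp, horizontal axis) at the chromosome 3 and chromosome 5 tiles; thin lines are saline libraries, squares and bars group mean and SD, red lesioned and blue unlesioned. The lesioned mean is the lower one at all 5 CpGs of each panel, with differences from −23.5 to −13.5 points on the left and from −9.97 to −8.26 points on the right.

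The other 3 lower tiles lie on chromosomes 20, 4 and 6. On chromosome 4 at 25541001 to 25541250, with 5 CpGs, lesioned libraries read 77.3%, 84.5% and 90.5% (lowest, median, highest) and unlesioned ones 90.8%, 92.4% and 92.9%. The groups did not overlap, by a margin of under 1 point. The chromosome 20 tile at 47574501 to 47574750 averaged 82.9% ± 3.95 (SD, n = 8) and 90.2% ± 2.21 (n = 6), and lesioned replicate 2, at 88.0%, lay above unlesioned replicate 4, at 86.1%. On chromosome 6 at 62086751 to 62087000, an intermediate tile of 3 CpGs, the means were 28.4% ± 6.76 and 44.2% ± 9.22. Unlesioned replicate 4 was the lowest of its group there, at 30.2%, and the difference was −15.8 points with it and −20.9 points without unlesioned replicates 1 and 4.

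Tiles that were higher after the lesion had smaller differences, 0.833 to 10.4 points, against 7.37 to 24.7 points for the lower ones. The smallest p belonged to chromosome 12 at 27626001 to 27626250, with 3 CpGs. Lesioned libraries read 95.8%, 97.1% and 97.8% and unlesioned ones 93.4%, 94.5% and 95.1%, without overlap. The gap between the groups was smaller than the Wilson half-width of any library there, 1.49 to 2.91 points. The difference was 2.60 points (SE 0.405) with an unadjusted p of 4.79e-04. Of the 7 CpGs listed within 1000 bp of its centre, 5 had values in both groups, 4 of them higher and 1 lower after the lesion. The lower one, at 27626489, averaged 75.7% ± 18.6 (SD, n = 5) and 92.7% ± 10.1 (n = 4).

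A CpG-dense unmethylated tile and a sparser one were among the higher ones. On chromosome 1 at 92592751 to 92593000, with 28 CpGs and 867 to 4021 reads, the means were 1.85% ± 0.457 (SD, n = 8) and 1.01% ± 0.152 (n = 6), without overlap. The lowest lesioned value was 1.41% and the highest unlesioned value 1.15%, a gap smaller than any library's Wilson half-width, 0.302 to 0.817 points. On chromosome 14 at 80306251 to 80306500, with 7 CpGs, they were 3.62% ± 0.782 and 1.93% ± 0.660, with overlap. The chromosome 1 levels lie around the 1.17% to 1.49% read as methylated on the mitochondrial genome, and the part of that background in them was not tested. The widest difference among the higher tiles was on chromosome 20 at 6229501 to 6229750, 82.4% ± 5.14 (n = 8) against 72.0% ± 3.05 (n = 5). The chromosome 12 tile at 20510751 to 20511000, with 10 CpGs, averaged 98.6% ± 1.59 (n = 8) and 94.6% ± 4.16 (n = 5).

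**Figure D3:**
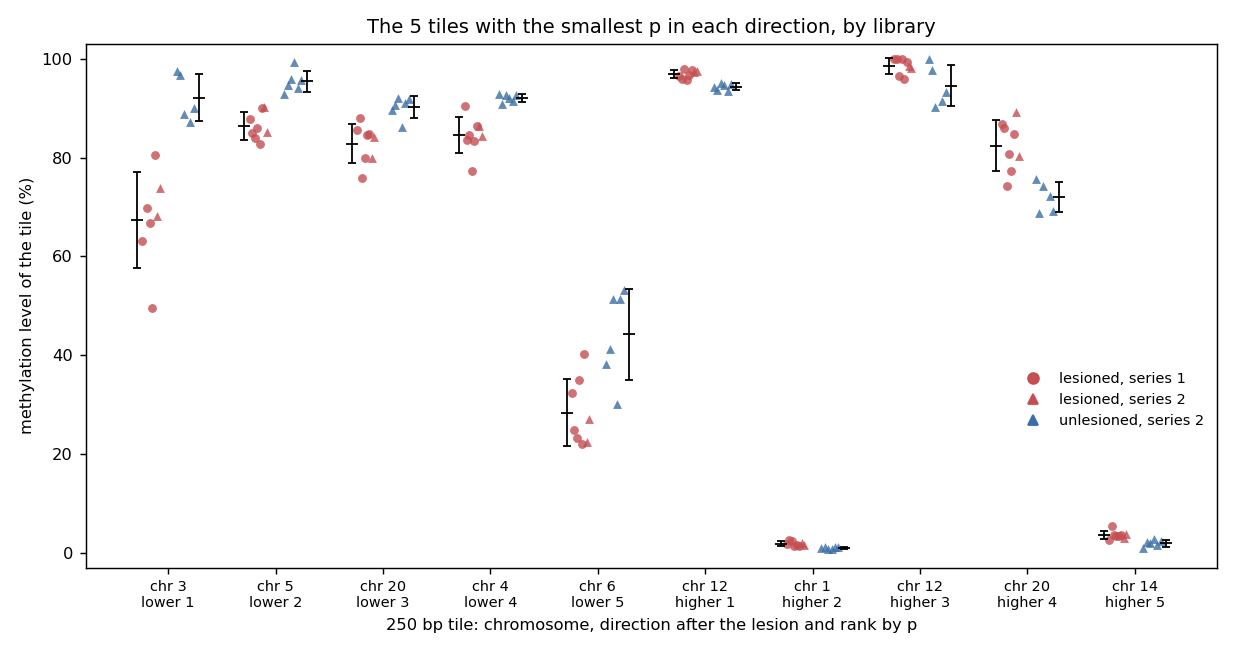
Methylation (percent, vertical axis) of the 10 tiles with the smallest p, 5 lower and 5 higher after the lesion (horizontal axis, by chromosome and rank), in each saline library; bars are group mean and SD, circles series 1, triangles series 2, red lesioned and blue unlesioned. At 5 of the 10 tiles, 3 lower and 2 higher, no lesioned value of either series overlaps an unlesioned value.

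At single CpGs the smallest p was on chromosome 6 at 35485625, a CpG with a low level. Lesioned libraries read 0%, 6.93% and 16.3% (lowest, median, highest) and unlesioned ones 17.9%, 23.8% and 36.7%. The groups did not overlap, and the means were 7.22% ± 4.86 (SD, n = 8) and 25.1% ± 6.74 (n = 6), a difference of −17.9 points (SE 3.24). The unadjusted p was 3.35e-06 and the adjusted p 1. The value of 0% is 0 of 50 reads, which allows a level of up to 6%, and the tile around this CpG differed by −8.29 points. Lesioned rats given L-DOPA averaged 10.5% ± 3.92 (n = 7).

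The other 4 lower CpGs were a low one and 3 high ones. On chromosome 10 at 72390500 the means were 5.55% ± 2.50 (SD, n = 8) and 14.4% ± 2.01 (n = 6), without overlap. On chromosome 7 at 2876130 they were 85.4% ± 5.61 and 97.6% ± 2.36, and on chromosome 4 at 241991562 they were 81.8% ± 7.90 (n = 7) and 95.5% ± 1.05 (n = 6), both without overlap. The fourth is the CpG at 76371554 in the chromosome 5 tile, where the groups overlapped. The tiles that hold the CpGs on chromosomes 10, 7 and 4 differed in the same direction by −4.61, −6.25 and −5.58 points.

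Among the 5 higher CpGs, that on chromosome 10 at 62388073 was intermediate in both groups. Lesioned libraries read 59.0%, 67.9% and 80% (lowest, median, highest) and unlesioned ones 43.1%, 52.5% and 55.0%, without overlap, a difference of 17.3 points (SE 2.96), and of 11.5 points within series 2 alone. The CpG on chromosome 16 at 73552474 averaged 93.4% ± 4.20 (SD, n = 8) and 76.0% ± 6.09 (n = 6), with unlesioned replicate 5 at 87.8% inside the lesioned range. The CpG on chromosome 6 at 135141537 averaged 99.5% ± 1.03 and 89.1% ± 6.14 from 14 to 75 reads, with overlap.

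The widest difference of all named features, 31.2 points (SE 10.5), was at a thinly covered CpG on chromosome 17 at 59256213. It averaged 94.4% ± 5.12 (SD, n = 7) after the lesion and 63.3% ± 23.0 (n = 5) without it, from 14 to 34 reads, and the unlesioned values ran from 38.2% to 87.1%. A last CpG on chromosome 1 at 142194589 averaged 5.09% ± 2.96 (n = 8) and 0.827% ± 0.513 (n = 6), without overlap. The tile around that CpG differed by 0.0708 points, with an unadjusted p of 0.887, so the level of the tile as a whole was nearly equal in both groups.

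Of the 10 windows of 1000 bp with the smallest p, 5 hold a named tile. Of the 5 lower windows, 4 hold the tiles on chromosomes 3, 5, 4 and 6. The remaining one, on chromosome 11 at 64779001 to 64780000 with 9 CpGs, read 51.5%, 58.4% and 64.6% in lesioned libraries and 66.3%, 69.4% and 75.0% in unlesioned ones. The groups did not overlap and differed by −11.1 points (SE 2.14), and by −6.64 points within series 2 alone. All 5 higher windows overlapped between the groups. The widest of them, on chromosome 18 at 45448001 to 45449000, averaged 98.2% ± 1.54 (SD, n = 8) and 88.4% ± 9.45 (n = 6). The window on chromosome 7 at 117340001 to 117341000, with 25 CpGs and 1834 to 5343 reads, averaged 15.1% ± 1.69 and 11.9% ± 1.78, a difference of 3.23 points that was 2.13 points without unlesioned replicates 1 and 4. The others, on chromosome 4 at 196662001 to 196663000, chromosome 10 at 29445001 to 29446000 and chromosome 12 at 20510001 to 20511000, differed by 1.09, 3.88 and 4.12 points.

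The spread between libraries was compared as the root mean squared difference of 2 libraries over common tiles, with the binomial counting error subtracted. That error takes the counts of a tile's CpGs as independent and may be too small. Lesioned libraries differed from each other by 6.07 points and unlesioned libraries by 7.81 points. Lesioned and unlesioned libraries differed by 6.83 points, a value between those. The spread of the lesioned group was thus the smaller, by 24.1 squared points, but the test did not separate the groups (exact two-sided permutation p = 0.224, 3003 assignments). The distance between groups in excess of the distance within them was 1.48 squared points (exact one-sided permutation p = 0.274).

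The spread of each group moved with the libraries farthest from it. Unlesioned replicate 1 differed from its own group by 9.76 points and unlesioned replicate 4 by 8.83 points, while the other 4 unlesioned libraries differed from theirs by 6.75 to 7.13 points. Without replicates 1 and 4 the unlesioned libraries differed from each other by 5.01 points. In the lesioned group replicate 2 lay farthest from the others, at 7.35 points, and the remaining 7 lay at 5.40 to 6.32 points. Without replicate 2 the lesioned libraries differed from each other by 5.58 points. These libraries were left out because they lay farthest from their groups, which lowers the spread of a group by construction.

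The spread was widest at intermediate tiles in both groups. At 2 or 3 CpGs and 20% to 80% methylation it was 9.98 points among lesioned and 12.9 points among unlesioned libraries, and 8.33 points among the unlesioned without replicates 1 and 4. At unmethylated tiles of 15 or more CpGs it was 1.14 and 1.32 points, and 1.00 point without those replicates. The order of the groups was the same in all 13 classes with the 14 libraries, lesioned below unlesioned. It was the opposite in all 13 without replicates 1 and 4, with the lesioned group kept whole.

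**Figure D4:**
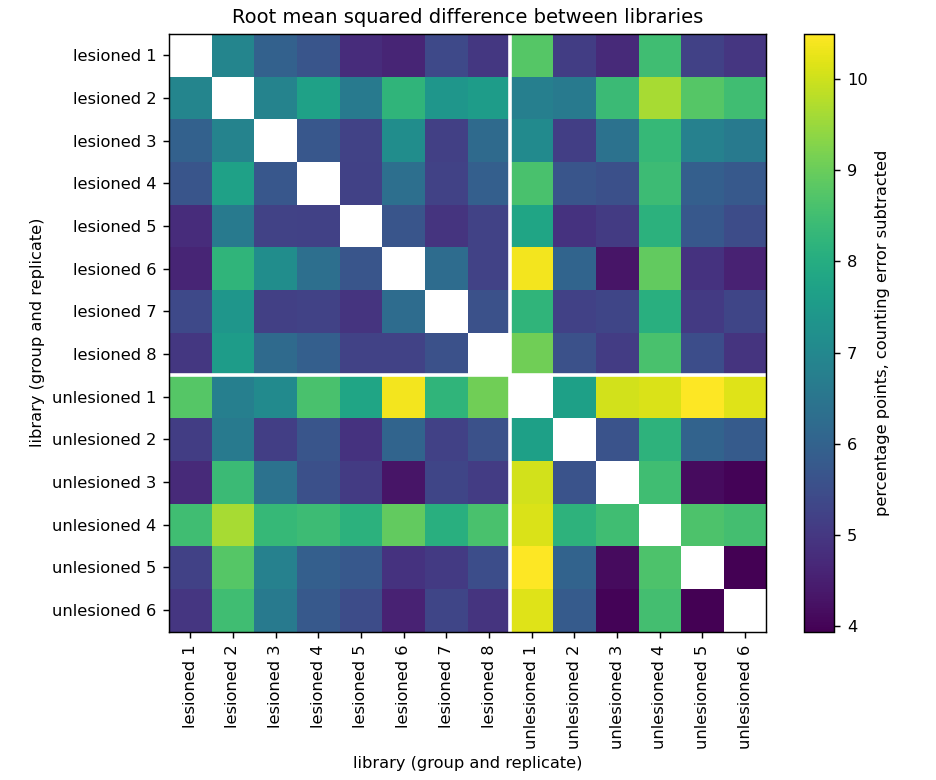
Root mean squared difference between each pair of the 14 saline libraries over common tiles, in percentage points with counting error subtracted (colour), by library on both axes; white lines part the groups. Rows and columns of unlesioned replicates 1 and 4 and lesioned replicate 2 are mostly brighter than the rest, and single other pairs, such as lesioned replicates 3 and 6 at 7.16 points, are bright too.

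The distances were also set out by library series. Pairs within lesioned series 1 differed by 6.26 points, pairs across the 2 series of lesioned libraries by 5.86 points, and the single pair within lesioned series 2 by 5.55 points. Unlesioned libraries without replicates 1 and 4 differed from lesioned series 2 by 5.25 points and from lesioned series 1 by 6.01 points. With lesioned replicate 2 left out as well, lesioned series 1 differed from those unlesioned libraries by 5.49 points and within itself by 5.68 points. These 5.25 points between groups of the same series are close to the 5.01 points among those 4 unlesioned libraries themselves. The distances share libraries and are given as a description.

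The libraries that stood apart did so in different ways. Unlesioned replicate 1 had the lowest level, 43.4% over common tiles, with reads gathered in CpG-dense tiles. Its median reads at tiles of 15 or more CpGs were 25.5 times those at tiles of 2 or 3 CpGs. This ratio was 10.97 in unlesioned replicate 4 and 13.9 to 18.5 in the remaining libraries. Lesioned replicate 2 had the second lowest level, 45.1%, at a ratio within the range of those remaining libraries. Unlesioned replicate 4 had a usual level, 46.9%, the lowest ratio, and the fewest reads of its group, a median of 56 at common CpGs. Lesioned replicate 3 had fewer still, a median of 45.

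A count of CpGs at which 1 library differed from all 13 others by 25 points or more showed the same libraries. Lesioned libraries had 50 such CpGs at the lowest, 129.5 at the median and 1070 at the highest, of 859273. Unlesioned libraries had 17, 102 and 5885. The highest values belonged to unlesioned replicate 4 with 5885, unlesioned replicate 1 with 1435 and lesioned replicate 2 with 1070. The group means did not differ beyond this spread (exact permutation p = 0.246). Unlesioned replicate 4 stood above the others at 2858 of its CpGs and below at 3027, while the other 2 stood almost always below, at 1431 and 1016 CpGs. Of all 3495 CpGs with 1 library above the others, the others were all under 5% at 341, and at 76 of these the lone library read 40% to 60%. The source of these lone values was not tested. Median reads at common CpGs were 73.6 ± 13.4 (SD, n = 8) in the lesioned and 93.5 ± 23.1 (n = 6) in the unlesioned group (exact permutation p = 0.0686).

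**Figure D5:**
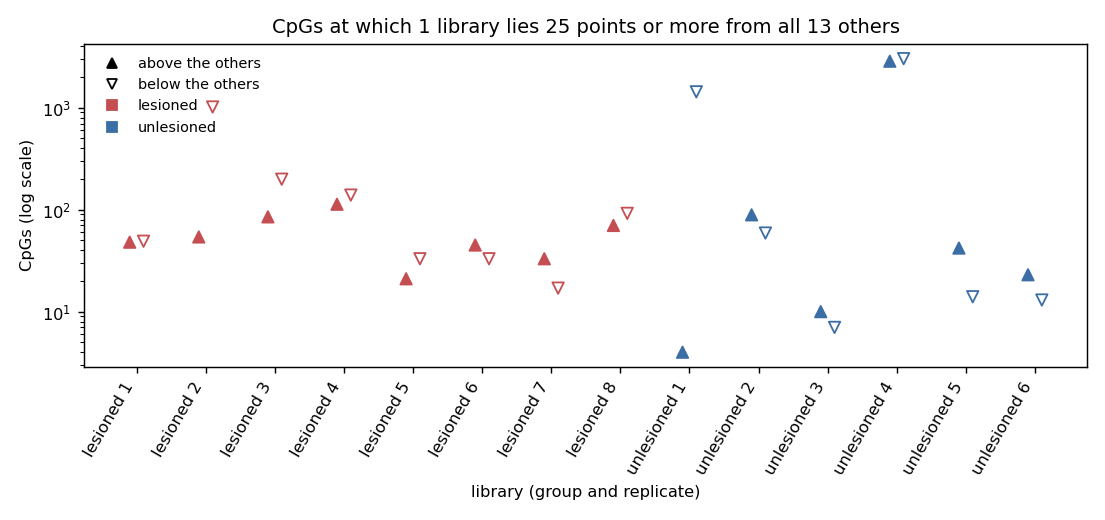
Number of CpGs (log scale, vertical axis) at which 1 saline library (horizontal axis) lies 25 points or more above (filled) or below (open) all 13 others, red lesioned and blue unlesioned. Unlesioned replicate 4 is high in both directions, at 2858 and 3027 CpGs, and unlesioned replicate 1 and lesioned replicate 2 mostly below the others, at 1431 and 1016.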

How the data were processed

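DNA methylation was measured by bisulfite sequencing in 21 libraries, of which 14 were compared. Per the labels and the submitters' processing notes, single-end reads of 50 bases were trimmed with Trim Galore 0.3.7, mapped to rn5 with Bismark 0.13.0, handled with SAMtools 0.1.19 and passed to methylKit 0.9.2, with FastQC 0.10.1 for quality control. For each cytosine of a CpG the deposited files hold its coverage, a count of reads, and what percent of them showed C or T. Coverage times percent gave whole read counts for 100% of the cytosines. Series 1 and 2 were read from the library numbers in the deposited names; the sources used here do not say what the runs are. Between 36.4% and 58.8% of a library's cytosines had more than 50 reads, which positional removal of duplicates of 50-base reads would not leave on 1 strand, so counting intervals and floors cover counting error only and may be too small.

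Both strands of a CpG were merged. Counts were summed over CpGs with at least 10 reads in tiles of 250 bp and windows of 1000 bp, and a library with fewer than 2 such CpGs in a tile or window was left out there. A read that covers several CpGs thus counts at each of them. Counting intervals, and the counting error subtracted from distances, take these counts as independent and may be too small. Features were tested where at least 5 libraries of each of the 3 groups had a value and pooled methylation was 1% to 99%: 180850 of 515637 tiles, 146001 of 333593 windows and 764713 of 1593379 CpGs. The quasi-binomial logistic model was fitted to all 21 libraries, with a Pearson dispersion moderated by the method of squeezeVar in limma and kept at 1 or above, an F-test on the deviance, and Benjamini-Hochberg adjustment over all features. It was written in Python 3.11.15 with numpy 2.4.6 and scipy 1.17.1, tested on simulated data, and compared with limma 3.58.1 (R 4.3.3, log2 odds with a pseudocount of 0.5). Group differences are unweighted differences of library percentages. Means, classes, shares, spreads and counts per library were compared with exact two-sided permutation tests over 3003 assignments (one-sided for the distance between groups), adjusted within each family. The features named are the 5 with the smallest p per direction and scale, since fewer than 3 passed, with all CpGs within 1000 bp of the tile with the smallest p per direction. The CpGs around the chromosome 5 tile were added after its values were seen. The comparison, the classes and the rule were chosen with earlier results of these data known. Alternatives were the samples fitted, the library series or replicate number as a term, limma, 20 reads per CpG, an adjusted p under 0.01, no overdispersion, no filter on level, strands apart, and each library left out. Leaving out unlesioned replicates 1 and 4, for the distances also with lesioned replicate 2, was chosen after the data were seen.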

Additional observations from a re-analysis of the deposited data

Results flagged for a closer look

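Of 118 sets of values of 1 group that were checked, 17 had a highest or lowest library far from the next, where chance gives about 1 in 20 or 5.9. They gather in few libraries. Lesioned replicate 2 stood alone in its group in 7 of them. Its mean over common CpGs was 30.3% (next library 31.5%), its X chromosome mean 35.5% (next 36.4%), and its distance to its own and to the other group 7.35 and 8.19 points (next 6.32 and 6.92). It was alone by 25 points or more at 1070 CpGs, 1016 of them below the others (next 284 and 199), and it read 5.35% at the chromosome 14 tile of 80306251 (next 3.81%). Lesioned replicate 3 had the fewest CpGs, 977801, and the fewest reads at common CpGs, a median of 45 (next 68). Lesioned replicate 1 read 18.7% at the chromosome 7 window of 117340001 (next 15.8%).

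Unlesioned replicate 1 was the lowest of its group in mean over common CpGs, 29.2% (next 31.6%), and in intermediate tiles of 15 or more CpGs, 34.8% (next 40.7%). It was also the lowest in highly methylated tiles of 4 to 7 CpGs, 88.1% (next 90.3%), and in the share of CpGs above 90%, 12.3% (next 14.6%). Unlesioned replicate 4 was alone at 5885 CpGs (next 1435), 2858 of them above the others (next 89). Unlesioned replicate 5 read 87.8% at the chromosome 16 CpG of 73552474 (next 76.7%).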

How the results depend on the processing

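Counts of called features stayed at 0 with each library left out (0 to 0 at each scale) and in all other settings but 3. The 14 saline libraries alone gave 1 tile, on chromosome 5. A model without overdispersion, at an adjusted p under 0.01 and at least 5 points, gave 6048 tiles, 4301 lower and 1747 higher. With the replicate block 3 CpGs passed, named here after their values were seen: chromosome 1 at 88467465, chromosome 3 at 14351011 and chromosome 18 at 5354218. At each, at most 2 libraries of a group were above 0% and the rest at 0%. Whether equal numbers mark paired libraries is not stated and was not tested. Same-numbered libraries correlated at −0.173 to 0.295, 2 of 6 above 0.1, and 2 of 6 correlated best with their own number. Of 653 values of the named features in other settings 0 changed sign, which tests nothing. The model settings (saline libraries alone, series or replicate number as a term, limma, no overdispersion) reuse the main difference, so their sign was fixed. The others use libraries that were part of the choice of the features. Without overdispersion 6 of 10 named tiles passed both limits, and otherwise 1 passed. Without unlesioned replicate 1 the windows under the unadjusted threshold rose from 4555 to 7247.

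No level, share or distance passed in any setting (smallest adjusted exact permutation p 0.0626), so each sign below is that of a difference within the spread; the cause was not tested. Series 2 alone turned the mean to 0.288 points. It turned the unmethylated classes to 0.0201, 0.00943, 0.0172 and 0.0197 points in order of density, the first 3 intermediate ones to 0.788, 0.435 and 0.0620, and the X chromosome to 0.200. The share under 10% became −0.141 and that over 90% 0.0189 points, and the group distance −16.6 squared points. A minimum of 20 reads turned highly methylated tiles of 4 to 7 CpGs to −0.0164, the X chromosome to 0.0129 and the share of 10% to 90% to −0.103 points. Without unlesioned replicates 1 and 4 the highly methylated classes became −0.670, −0.693, −0.536 and −0.680 points, the spread difference 11.7 and the group distance −0.795 squared points; without lesioned replicate 2 as well, they were 5.98 and −0.379. Both were chosen after the data were seen, from the libraries farthest from their groups. With each library left out in turn, values ranged from −0.928 to 0.155 points for the mean and from −0.0709 to 0.00854 for unmethylated tiles of 15 or more CpGs. In intermediate tiles they ranged from −2.27 to 0.460, −2.48 to 0.269, −2.30 to 0.236 and −1.71 to 0.155, and in highly methylated tiles from −0.453 to 0.268, −0.491 to 0.206, −0.352 to 0.263 and −0.460 to 0.246. For the X chromosome they ranged from −0.461 to 0.155, for the share under 10% from −0.108 to 0.557, for that of 10% to 90% from −0.0896 to 0.258, for the spread difference from −31.8 to −6.96 and for the group distance from −0.672 to 4.66 squared points.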
